A study of Mus musculus with 14 samples.

Results

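Bcl6 was followed on 14 microarrays of the mouse pre-B cell line BH1-Bcl2-Ik1ER, as 1 gene of 19938 that had a probe set with a single symbol. The member was chosen as the brightest probe set named Bcl6 alone, and 1 probe set carried that name (Entrez gene 12053). The gene was picked for its pattern over these arrays, so its levels and differences are given as a description with no test. Values are log2 expression values as the authors deposited them, on which 1 unit is a doubling.

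BH1 cells are Ikaros-deficient, and all arrays come from cells transduced with 2 retroviruses, one for Bcl2, which blocks apoptosis, and one for an Ikaros-estrogen receptor fusion (Ik1ER). The fusion is switched on with 100 nM 4-hydroxytamoxifen (4OHT). IL-7, the growth factor of early B cells, came from 8% conditioned medium of a J558L line, and for withdrawal that medium was omitted. The 7 groups were time 0, with no 4OHT named, then 6 h with IL-7 and 4OHT, 6 h without IL-7 and with 4OHT, and at 24 h all 4 combinations of IL-7 and 4OHT. Each group held 2 arrays, one from each of 2 independent experiments on 1 line, and no cells without the fusion were compared, so the agent 4OHT and Ikaros activity cannot be told apart. There was no group at 6 h without 4OHT. The line is kept with the IL-7 medium, so time 0 counts as cells with IL-7, but the labels do not say when that medium was last renewed before time 0.

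BCL6 is a transcriptional repressor with an N-terminal BTB domain, which binds corepressors, and C-terminal zinc fingers, which bind DNA. It is best known as the factor that germinal centre B cells depend on. In pre-B cells IL-7 signals through JAK kinases to STAT5, which is known to repress Bcl6, and Bcl6 is known to be raised when IL-7 signalling falls. There it is known to restrain genes of the cell cycle and of the DNA damage checkpoint, Myc among them.

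RefSeq lists 2 transcription starts for Bcl6 on the minus strand of chromosome 16, 7.57 kb apart. The 250 bases before each start are shown because the letters TTCNNNGAA, the palindrome that STAT factors bind, occur in both. Sequences are from RefSeq (GRCm38.p6), read 5′ to 3′ on the gene's strand, with each TTCNNNGAA in capitals.

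Bcl6 upstream start, chr16:23988853-23989102: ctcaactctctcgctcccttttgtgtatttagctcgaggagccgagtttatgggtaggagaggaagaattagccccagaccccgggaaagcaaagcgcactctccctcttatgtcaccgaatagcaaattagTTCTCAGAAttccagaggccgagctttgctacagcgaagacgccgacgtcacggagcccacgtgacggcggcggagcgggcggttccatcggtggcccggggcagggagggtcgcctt

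Bcl6 downstream start, chr16:23981284-23981533: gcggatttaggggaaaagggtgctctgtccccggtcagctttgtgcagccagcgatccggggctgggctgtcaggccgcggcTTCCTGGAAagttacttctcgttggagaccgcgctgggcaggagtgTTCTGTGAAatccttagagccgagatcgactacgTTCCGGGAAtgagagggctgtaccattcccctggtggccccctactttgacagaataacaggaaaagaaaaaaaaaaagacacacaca

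The window of the upstream start held 1 match, TTCTCAGAA, whose first base lies 118 bases before the start. The window of the downstream start held 3 matches, TTCCTGGAA, TTCTGTGAA and TTCCGGGAA, which begin 168, 122 and 88 bases before the start. Of all 32851 RefSeq windows of 250 bases, 7.02% held at least 1 match, and 9 windows (0.0274%) held 3 or more. Of those 9, the Bcl6 window and the windows of Stambpl1 and Zfp93 belong to genes without a predicted-gene name, a feature picked out after the letters were seen. The other motifs were searched on both strands. GTAAACA, the letters FoxO factors bind, was in neither Bcl6 window and in 3.17% of all windows. TTCCTAGAA, the core that BCL6 itself binds and a special case of TTCNNNGAA, was in neither window and in 0.347% of all. GGGAA, the core that Ikaros binds, occurred 1 time before the upstream start and 3 times before the downstream start, where one copy lies inside TTCCGGGAA. It is common, with 56.2% of windows holding it. Which start the transcripts used was not measured, and a match is a description of letters.

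Across the whole series, array medians lay between 7.23 and 7.43, and the 2 arrays of a group correlated over genes at 0.9968 to 0.9982. All 8 measured B lineage markers of 9, such as Cd79a, Pax5 and Ebf1, lay above the median of all values (7.33), as did 1 of 8 T cell markers, 1 of 9 myeloid markers, 0 of 7 NK cell markers, 1 of 4 erythroid and megakaryocyte markers and 3 of 6 plasma cell markers. Those 3 were Sdc1, Xbp1 and Irf4. The group means of these marker lists spanned 6.49 to 6.63 for T cells, 6.10 to 6.26 for myeloid cells, 5.55 to 5.85 for NK cells, 6.50 to 6.62 for the erythroid and megakaryocyte list and 8.12 to 8.31 for plasma cells. On withdrawal at 6 h, at 24 h without 4OHT and at 24 h with 4OHT, limma called 1, 2 and 2 of the 6 plasma cell markers, 0, 1 and 1 of the 9 myeloid markers, 0, 0 and 1 of the 7 NK cell markers, 0, 0 and 1 of the 4 erythroid and megakaryocyte markers and 0, 0 and 0 of the 8 T cell markers. The B lineage list had group means of 12.17 to 12.73, and 2, 6 and 7 of its 8 markers were called. Of all genes 14.3%, 20.0% and 24.3% were called in these comparisons. The part of the marker lists in the results was not tested. The endogenous and the transduced Ikaros could not be told apart by the single Ikzf1 probe set, so it checks no label. Fewer cells of a state and less RNA per cell cannot be told apart on these arrays.

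At time 0 Bcl6 was read at 10.16 in experiment 1 and 10.05 in experiment 2. After 6 h with IL-7 and 4OHT it was read at 7.74 and 7.71, the 2 lowest values of all 14 arrays. After 6 h without IL-7, with 4OHT, it was read at 10.27 and 10.14. The gene thus stood near its starting level where IL-7 was taken away and far below it where IL-7 was kept, with no overlap between the 2 groups at 6 h. Time 0, from cells kept with IL-7, thus read like the cells without it, and a difference from time 0 holds the change of culture together with 4OHT and time, which cannot be told apart.

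At 24 h with IL-7 the values were 8.86 and 8.66 without 4OHT, and 8.74 and 8.82 with 4OHT. Without IL-7 they were 10.40 and 10.41 when 4OHT was absent, the 2 highest of the series, and 10.06 and 9.90 when it was present. All 8 arrays at time 0 or under withdrawal lay at 9.90 or above, and all 6 arrays cultured with IL-7 for 6 or 24 h after time 0 lay at 8.86 or below.

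**Figure D1:**
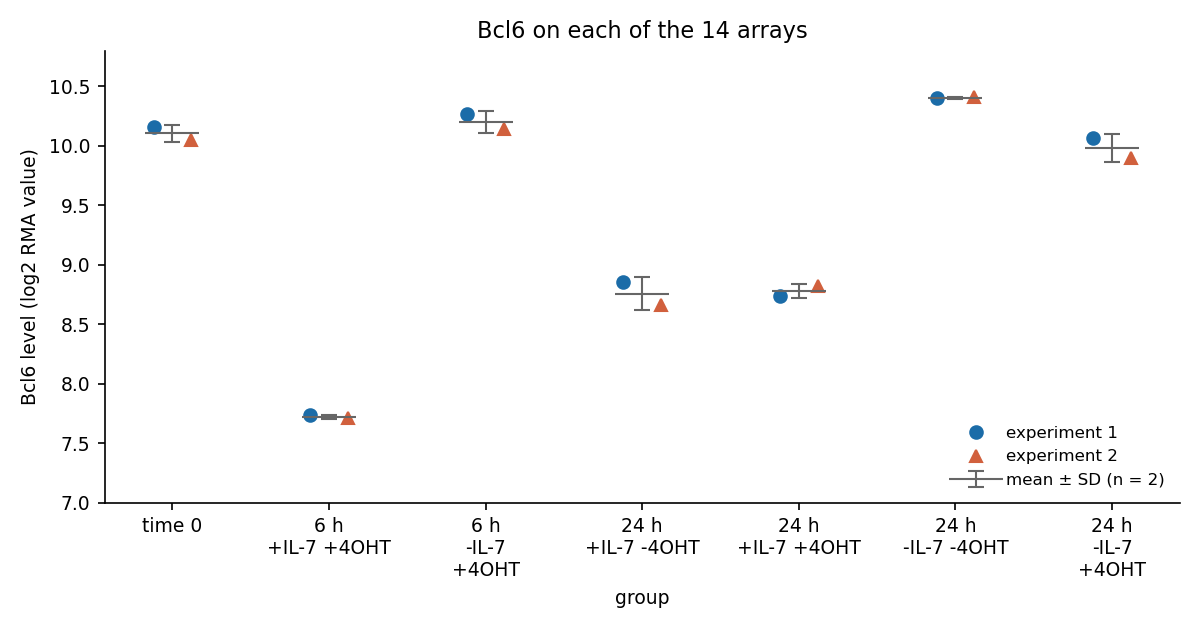
Bcl6 log2 level (vertical axis) on each of the 14 arrays by group, with circles for experiment 1, triangles for experiment 2 and the mean ± SD of the 2 arrays. The groups with IL-7 at 6 and 24 h sit between 7.71 and 8.86, below time 0 and the groups without IL-7, which sit between 9.90 and 10.41.

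Ordered by mean, the levels were 10.41 ± 0.01 at 24 h without IL-7 and 4OHT, 10.20 ± 0.09 at 6 h without IL-7, 10.10 ± 0.07 at time 0, and 9.98 ± 0.12 at 24 h without IL-7 and with 4OHT (SD, n = 2 each). Then came 8.78 ± 0.06 at 24 h with IL-7 and 4OHT, 8.76 ± 0.14 at 24 h with IL-7 alone and 7.73 ± 0.02 at 6 h with IL-7 and 4OHT (SD, n = 2 each). The arrays of neighbouring groups overlapped between 6 h without IL-7 and time 0, between time 0 and 24 h without IL-7 and with 4OHT, and between the groups at 24 h with IL-7. They did not overlap between the highest group and the next, 0.20 apart, between the groups without and with IL-7 at 24 h under 4OHT, 1.20 apart, or between the lowest group and the next, 1.03 apart. The pooled SD within groups was 0.085 against a range of group means of 2.68, a 6.41-fold span.

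Expressed as differences, Bcl6 at 6 h with IL-7 and 4OHT differed from time 0 by -2.38 ± 0.09 (SE), or 5.20-fold lower, with -2.42 and -2.34 in the 2 experiments. IL-7 withdrawal at 6 h, under 4OHT in both arms, gave a difference of 2.48 ± 0.09 (SE), or 5.57-fold, with 2.53 and 2.42 in experiments 1 and 2. That was the largest increase of all 19938 genes in this comparison, and the decrease against time 0 was the 5th largest of its own comparison. The 2 comparisons share the arrays at 6 h with IL-7.

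At 24 h the IL-7 difference was 1.65 ± 0.09 (SE), or 3.13-fold, without 4OHT and 1.20 ± 0.09 (SE), or 2.30-fold, with 4OHT. Within experiments 1 and 2 the values were 1.54 and 1.75 without 4OHT, and 1.33 and 1.08 with it. They ranked 8th and 6th among the increases of all genes. Culture for 24 h with IL-7 and no 4OHT gave a Bcl6 difference from time 0 of -1.35 ± 0.09 (SE), with -1.30 and -1.39 in the 2 experiments, the 5th largest decrease of that comparison.

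The levels at 6 and 24 h can be set side by side. With IL-7 and 4OHT it was 1.05 higher at 24 h than at 6 h, a 2.07-fold difference, with 1.0 and 1.11 in the 2 experiments. Without IL-7, under 4OHT, the difference between 24 and 6 h was -0.22, with -0.20 and -0.24.

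The differences with 4OHT were small beside those with IL-7. With IL-7 at 24 h, 4OHT gave 0.02 ± 0.09 (SE), with -0.12 in experiment 1 and 0.16 in experiment 2, so the sign differed between experiments. Without IL-7 it gave -0.43 ± 0.09 (SE), or 1.34-fold lower, with -0.34 and -0.52. The difference of these differences was -0.44 ± 0.12 (SE), with -0.21 and -0.68. In that interaction 0.687% of all genes were called, 0.0702% higher and 0.617% lower, and 3 genes of the gene lists used here, Myc, Cxcr5 and Vpreb1, were called lower.

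**Figure D2:**
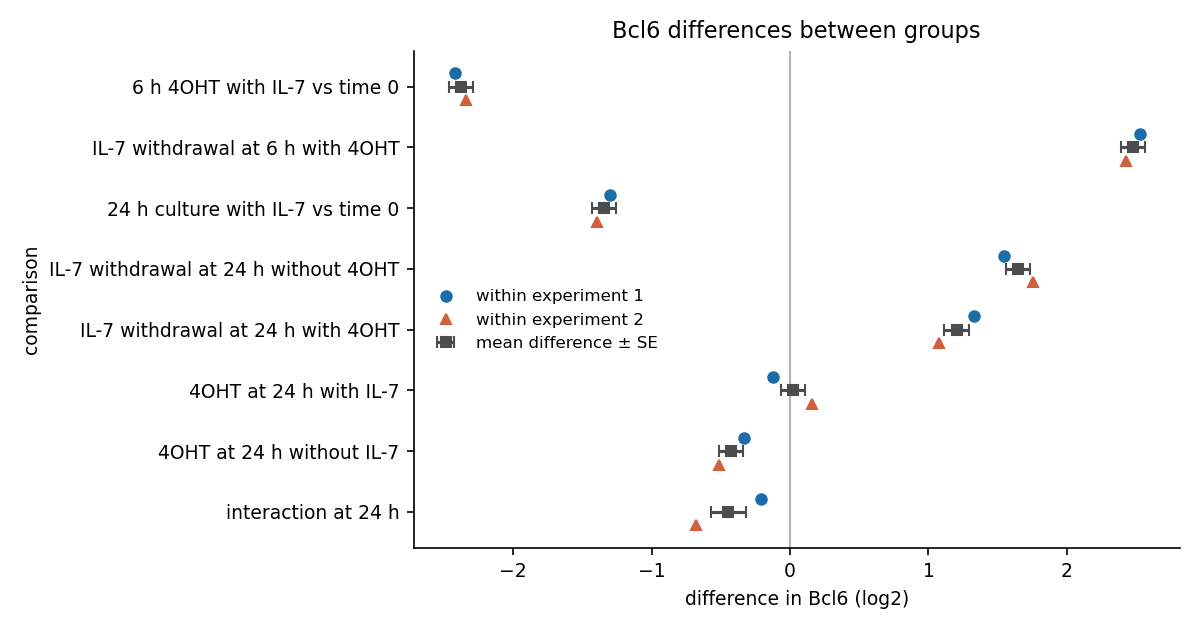
Difference in Bcl6 (log2, horizontal axis) for 8 comparisons, as the mean ± SE (squares) and within experiment 1 (circles) and experiment 2 (triangles). The 3 comparisons that remove IL-7 lie between 1.08 and 2.53 in both experiments, and 4OHT with IL-7 straddles 0.

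The genes whose profile lay closest to Bcl6 were found by the root mean square difference over the 14 arrays after each gene was centred on its own mean, among 17224 named genes. A gene that did not vary would lie 0.93 from Bcl6. Closest were Gas7 (0.36), a growth arrest-specific gene, Itga1 (0.38), the integrin alpha 1 chain, Kcnj2 (0.45), an inward rectifier potassium channel, and Tmtc1 (0.47). Trp53inp2 (0.51), an autophagy regulator, Rgs2 (0.51), a regulator of G protein signalling, Lsmem1 (0.53) and the homeobox factor Prox1 (0.53) followed, and the ninth gene lay at 0.54. Gas7 was read at 10.67 and 10.73 at time 0, 9.09 and 9.30 at 6 h with IL-7, and 10.46 and 10.34 at 6 h without it. At 24 h Gas7 had group means of 9.67 with IL-7 alone, 9.70 with 4OHT added, 11.32 without either and 10.76 without IL-7 and with 4OHT. It differs from Bcl6 in that its highest group stood well above time 0.

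With the sign turned, the closest genes were Lfng (0.30), a glycosyltransferase that modifies Notch, Epb41l4b (0.35), the STAT5-induced feedback inhibitors Socs2 (0.37) and Cish (0.43), Car12 (0.43), a carbonic anhydrase, and Relt (0.46), a TNF receptor family member. The next gene lay at 0.47. Lfng was read at 8.32 and 8.48 at time 0, 10.30 and 10.67 at 6 h with IL-7, and 8.25 and 8.66 at 6 h without it. It was thus high where Bcl6 was lowest. Cish was read at 8.27 and 8.27 at time 0, 10.76 and 10.67 at 6 h with IL-7, and 7.63 and 7.82 at 6 h without it. Unlike Bcl6, Cish was lower with 4OHT than without at 24 h with IL-7, at 8.78 and 8.57 against 9.52 and 9.58. These genes were selected for likeness on the same arrays, so their values are a description.

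**Figure D3:**
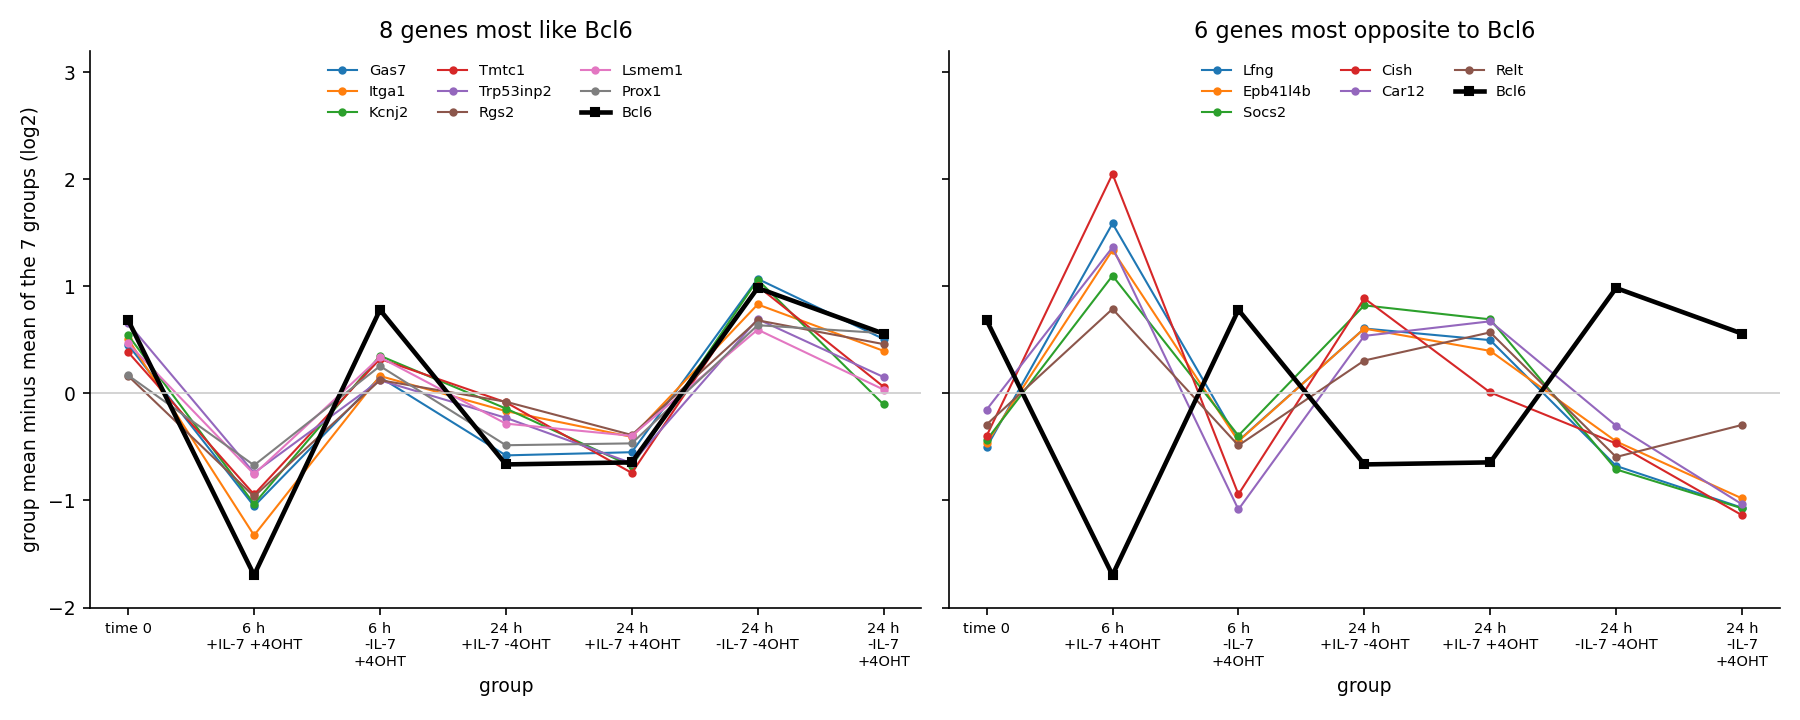
Group means minus the mean of the 7 groups (log2, vertical axis) for Bcl6 (black squares) with the 8 genes closest to it (left) and the 6 closest with the sign turned (right). Bcl6 dips deepest at 6 h with IL-7 and 4OHT, where Cish is highest among the 6.

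None of the 8 windows found for 7 of the 8 like genes, and none of the 5 windows found for 5 of the 6 opposite genes, held TTCNNNGAA. Among the STAT5 response genes described next, 1 of 11 windows for 8 of 12 genes held it, that of Socs3, a feedback inhibitor of cytokine receptors. Of all windows 7.02% held a match, so counts this small say nothing particular about these genes. The Socs3 match is shown to set beside the Bcl6 matches.

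Socs3, chr11:117969500-117969532, minus strand: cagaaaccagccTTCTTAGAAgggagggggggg

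The pathways around Bcl6 were then tested with limma, with Benjamini-Hochberg adjustment over all 19938 genes and a gene called at an adjusted p under 0.05. Members are given as counts of the measured genes, with the share of all genes called in that comparison. Called genes are written as risen or fallen. The p-values measure the spread between 2 arrays per group, pooled over groups.

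STAT5 response genes, those that cytokine signalling through STAT5 is known to induce, moved against Bcl6 at 6 h. Of 12 members 10 fell and 0 rose on IL-7 withdrawal at 6 h, where 14.3% of all genes were called and 7.48% called lower. Their median difference was -0.59, against 0.03 for all genes. Cish fell by 2.99 ± 0.08 (SE, limma adjusted p = 4.54e-09), and Ccnd2, cyclin D2, fell by 2.71 ± 0.19 (SE, limma adjusted p = 2.4e-06). Myc, the growth regulator, fell by 2.13 ± 0.11 and Socs2 fell by 1.49 ± 0.12 (SE). Without the array of experiment 1 at 6 h with IL-7 and 4OHT, or that of experiment 2 at 6 h without IL-7, 6 members were called.

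At 6 h with IL-7 and 4OHT against time 0, where 8.77% of all genes were called and 3.92% higher, 11 of the 12 rose, with a median of 0.73 against -0.02 for all genes. Cish rose by 2.45 ± 0.08, Socs2 by 1.53 ± 0.12, Mycn by 1.24 ± 0.09 and Ccnd2 by 1.06 ± 0.19 (SE). At 24 h with IL-7 and no 4OHT against time 0, where 3.09% of all genes were called, 0.737% higher and 2.36% lower, 4 of 12 rose, Ccnd2, Cish, Socs2 and Osm. The Osm call (limma adjusted p = 0.045) was lost with a trended robust spread and in 12 of 14 fits that left out 1 array. That count was 2 without the array of experiment 2 at 24 h with IL-7 and no 4OHT.

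The STAT5 response was called for fewer members at 24 h. IL-7 withdrawal without 4OHT (20.0% of all genes called) lowered 4 of 12 and raised 1, Mcl1, and withdrawal with 4OHT (24.3% called) lowered 5. Ccnd2 had differences of -1.79 ± 0.19 and -3.07 ± 0.19 (SE) in these comparisons, both called. Cish had called differences of -1.36 ± 0.08 and -1.15 ± 0.08 (SE), where the Bcl6 differences were 1.65 and 1.20. With 4OHT at 24 h and IL-7 present (9.16% of all genes called, 3.94% lower), 1 of 12 rose and 1 fell, Bcl2l1 (1.41 ± 0.16, SE) and Cish (-0.88 ± 0.08, SE), while the experiment as a block gave 6 called. With 4OHT and no IL-7 (15.3% called, 8.17% lower) 3 rose and 3 fell.

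The calls among the IL-7 receptor and its STAT factors were all higher in the 3 withdrawal comparisons, and no difference between times was tested. Of 7 measured members of 10, 1 rose at 6 h without IL-7, the receptor chain Il7r (0.36 ± 0.09, SE, limma adjusted p = 0.0154). This 1 call is 14.3% of the list, equal to the 14.3% of all genes called, so it says nothing particular about the list. The experiment as a block gave 3, and leaving out 1 array gave 0 to 2. At 24 h without IL-7 and 4OHT all 7 rose (Il7r, Jak1, Stat5a, Stat5b, Stat3, Stat6 and the phosphatase Ptpn6), by 0.29 to 0.60, where 11.2% of all genes were called higher, and 4 was the lowest count when an array of that comparison was left out. The Ptpn6 call (limma adjusted p = 0.0455) was lost in 10 of 14 such fits. With 4OHT 4 rose on withdrawal, Il7r, Jak1, Stat3 and Stat6 (12.8% of all genes called higher). Stat5a was read at 11.20 and 10.99 at time 0, 10.18 and 10.23 at 6 h with IL-7, and 10.20 and 10.15 at 6 h without it. Stat5a was low in both 6 h groups under 4OHT, and Bcl6 was low in one and high in the other. A link between Stat5a transcripts and Bcl6 was not tested. 4OHT at 24 h lowered Stat5a with IL-7 (-0.49 ± 0.09) and without (-0.80 ± 0.09, SE).

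FoxO factors are held back by growth factor signalling through PI3K and AKT and are known to favour quiescence and Bcl6. Of 16 measured members of 17 in the list of FoxO factors and targets, 6 rose and 0 fell on IL-7 withdrawal at 6 h, where 6.78% of all genes were called higher. They were Ccng2 (0.65 ± 0.11), Cdkn1b (0.61 ± 0.10), Sesn3, Tsc22d3, Pik3ip1 and Txnip, with 3 called without the array of experiment 1 at 6 h with IL-7. At 24 h 8 rose without 4OHT and 9 with it, against 11.2% and 12.8% of all genes called higher, and 0 fell, with medians of 0.39 and 0.41 against -0.01 and 0.06 for all genes. The count without 4OHT was 4 without the array of experiment 1 without IL-7 or the array of experiment 2 with IL-7.

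4OHT also raised FoxO list members, 7 with IL-7 and 8 without, with 5.22% and 7.10% of all genes called higher. Foxo1 itself was read at 9.66 and 9.39 at 24 h with IL-7, 10.49 and 10.20 with 4OHT added, 10.10 and 10.04 without either, and 11.42 and 11.17 without IL-7 and with 4OHT. Foxo1 was highest without IL-7 and with 4OHT, where Bcl6 was lower than without 4OHT. Foxo1 rose with 4OHT by 0.82 ± 0.12 (SE, limma adjusted p = 0.00117) with IL-7 and by 1.22 ± 0.12 (SE, limma adjusted p = 2.66e-05) without. The Bcl6 differences there were 0.02 and -0.43. A link between Foxo1 and Bcl6 was not tested. At 6 h without IL-7 the Foxo1 difference was 0.35 ± 0.12 and was not called (SE, limma adjusted p = 0.0899). That test did not pair the arrays by experiment. In experiments 1 and 2 Foxo1 was read at 9.92 and 9.83 at 6 h with IL-7, and at 10.27 and 10.18 without it. Foxo1 was thus higher without IL-7 in both experiments.

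The pre-B cell receptor signals through SYK and BLNK and is known to raise BCL6. Of 12 measured members of 14 in that list, 5 rose and 0 fell at 6 h without IL-7, Blnk (0.49 ± 0.09), Syk (0.48 ± 0.10), Prkcb, Vpreb1 and Pik3cd, with 6.78% of all genes called higher. The Pik3cd call (limma adjusted p = 0.0485) was lost with a trended robust spread and in all 14 fits that left out 1 array. The count of 5 was 2 without the array of experiment 1 at 6 h with IL-7 or that of experiment 2 at 6 h without IL-7. At 24 h withdrawal raised 5 without 4OHT, and raised 9 and lowered 1 with it, against 11.2% and 12.8% of all genes called higher. These counts were 2 without the array of experiment 2 of either group compared, and 5 called without the array of experiment 2 at 24 h with IL-7 and 4OHT. 4OHT raised 6 and lowered 1 with IL-7, and raised 8 and lowered 2 without it, Vpreb1 and Igll1, the surrogate light chain genes. Of all genes 5.22% and 7.10% were called higher there, and 3.94% and 8.17% lower. Blnk was read at 11.88 and 11.86 at 24 h with IL-7, 12.62 and 12.43 with 4OHT added, 12.63 and 12.62 without either, and 13.13 and 13.01 without IL-7 and with 4OHT.

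Genes reported elsewhere as repressed by BCL6 did not form 1 direction. Of 18 measured members of 22, 5 fell and 1 rose at 6 h without IL-7, where 7.48% of all genes were called lower. The falls were Ccnd2, Myc, the chemokine Ccl3 (-1.08 ± 0.19), the AP-1 factor Batf (-0.80 ± 0.11) and the checkpoint kinase Atr (-0.62 ± 0.07, SE), and the rise was the cell cycle inhibitor Cdkn1b (0.61 ± 0.10, SE). The median over the 18 was -0.16 against 0.03 for all genes. Myc, Ccnd2 and Bcl2l1 also stand in the STAT5 list and Cdkn1b in the FoxO list, so these counts are not separate. Bcl2 is also among the 18, and its reading may hold the transduced Bcl2 besides the endogenous gene. Bcl2 was not called in any comparison.

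At 24 h withdrawal lowered 7 and raised 3 of the 18, both without 4OHT (8.78% of all genes called lower) and with it (11.5% called lower). The checkpoint kinase gene Chek1 fell by 2.19 ± 0.20 without 4OHT and fell by 3.23 ± 0.20 with it (SE, limma adjusted p = 2.58e-05 and 7.96e-07). Chek1 was read at 11.09 and 10.88 at 24 h with IL-7, and at 8.94 and 8.66 without it. At 6 h its difference was -0.53 ± 0.20 and was not called (SE, limma adjusted p = 0.112), with arrays not paired by experiment. In experiments 1 and 2 Chek1 was read at 10.44 and 9.94 at 6 h with IL-7, and at 9.91 and 9.40 without it. It was thus lower without IL-7 in both experiments. A link between Chek1 and Bcl6 was not tested. The adhesion receptor Cd44 fell, at -0.63 ± 0.12 and -1.11 ± 0.12 at 24 h, and Id2, a helix-loop-helix inhibitor, rose by 1.10 ± 0.28 and 0.85 ± 0.28 (SE). The second Id2 call (limma adjusted p = 0.0456) was lost with a trended robust spread and in 6 of 14 fits that left out 1 array. Without 4OHT the count of 10 was 6 when the array of experiment 1 without IL-7, or that of experiment 2 with IL-7, was left out.

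Myc was read at 12.55 and 12.49 at time 0, 13.30 and 13.18 at 6 h with IL-7, and 11.31 and 10.92 at 6 h without it. At 24 h it was read at 12.88 and 12.86 with IL-7, 12.63 and 12.66 with 4OHT added, 12.10 and 12.05 without either, and 9.31 and 9.43 without IL-7 and with 4OHT. Of the 2 groups without IL-7 at 24 h, that with 4OHT differed by -2.70 ± 0.11 in Myc (SE, limma adjusted p = 1.7e-08), and Bcl6 was the lower of the pair where Myc was lowest. Myc also stood high at time 0, where Bcl6 was high.

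Other reported targets had smaller differences. Cdkn2a, which encodes the ARF and INK4A tumour suppressors, had a difference of -0.05 ± 0.10 at 6 h without IL-7 and -0.10 ± 0.10 at 24 h without 4OHT, neither called (SE, limma adjusted p = 0.889 and 0.604), and fell by 0.40 ± 0.10 with 4OHT (SE, limma adjusted p = 0.0114). Prdm1, the plasma cell factor Blimp-1, had a difference of -0.19 ± 0.09 at 6 h (SE, limma adjusted p = 0.216). At 24 h without 4OHT Prdm1 rose by 0.31 ± 0.09 (SE, limma adjusted p = 0.0293), a call lost after renewed quantile normalization, and its levels were 6.55 and 6.32 against 6.15 and 6.10. Irf4, another plasma cell and B cell factor, was called in none of the 3 withdrawal comparisons, with differences of 0.11, 0.21 and 0.13 (limma adjusted p of 0.641, 0.166 and 0.407).

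**Figure D4:**
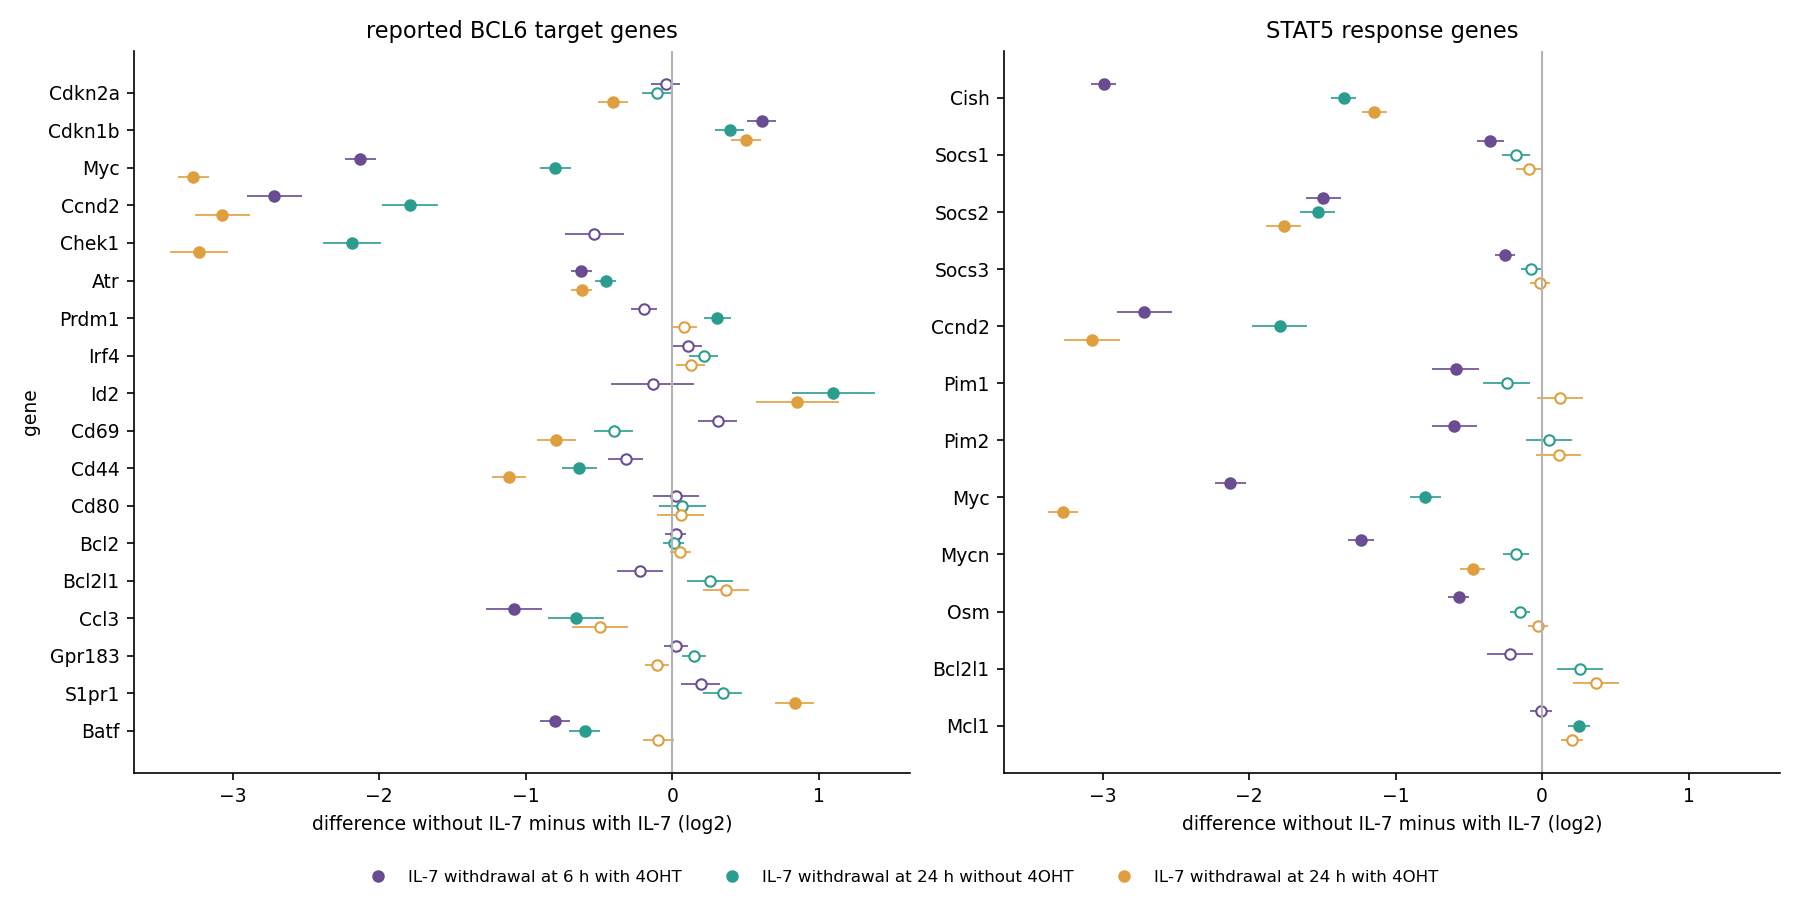
Difference without minus with IL-7 (log2, horizontal axis; bars are SE) for 18 reported BCL6 target genes (left) and 12 STAT5 response genes (right) in 3 comparisons, filled where the limma adjusted p was under 0.05. Myc and Ccnd2 lie below 0 in all 3 comparisons and Cdkn1b above 0 in all 3.

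Against time 0 the reported targets gave 5 rises and 2 falls at 6 h with IL-7 and 4OHT, where Bcl6 was lower, 3.92% of all genes were called higher and 4.85% were called lower. The rises were Ccnd2, Batf (0.89 ± 0.11), Myc (0.72 ± 0.11), Bcl2l1 (0.68 ± 0.16) and Irf4 (0.41 ± 0.10), and the falls Ccl3 (-0.84 ± 0.19) and the activation marker Cd69 (-0.63 ± 0.13, SE). Without the time 0 array of experiment 1, 3 were called. At 24 h with IL-7 and no 4OHT 2 rose, Ccnd2 and Batf, and Cd69 fell, with 5 called when the experiment was a block and 0 without the array of experiment 2 at 24 h. In that comparison 3.09% of all genes were called, 0.737% higher and 2.36% lower. 4OHT at 24 h raised 3 and lowered 1 with IL-7, and raised 4 and lowered 7 without it, against 9.16% and 15.3% of all genes called in either direction. S1pr1, a receptor for exit into blood, rose most, by 2.05 ± 0.13 and 2.54 ± 0.13 (SE), with Bcl6 differences of 0.02 and -0.43.

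Transcripts of the proteins through which BCL6 represses were tested in the same way. Of 20 measured corepressors and partners of 22, 3 rose and 0 fell at 6 h without IL-7, the histone deacetylase Hdac5 (0.50 ± 0.07), the corepressor subunit Tbl1xr1 (0.32 ± 0.09) and the demethylase Kdm1a (0.30 ± 0.07, SE). These 3 are 15% of the list, near the 14.3% of all genes called, so the count says nothing particular about the list. The experiment as a block gave 6, and 1 was called without the array of experiment 1 with IL-7 or that of experiment 2 without it. Bcor, the BCL6 corepressor, was not called at 6 h (0.15 ± 0.12, SE, limma adjusted p = 0.542) but rose at 24 h on withdrawal, by 0.44 ± 0.12 without 4OHT and 0.49 ± 0.12 with it, and with 4OHT by 0.64 ± 0.12 with IL-7 and 0.69 ± 0.12 without (SE). Bcor levels at 24 h were 9.62 and 9.52 with IL-7, 10.19 and 10.23 with 4OHT added, 9.94 and 10.08 without either and 10.65 and 10.76 without IL-7 and with 4OHT. Hdac3 was called in none of the comparisons, with differences of -0.17 to 0.08.

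At 24 h withdrawal raised 4 and lowered 1 of the 20 without 4OHT, and raised 4 and lowered 4 with it. That is 25% and 40% of the list, against 20.0% and 24.3% of all genes called. The first count of 5 was 8 with the experiment as a block, 3 after renewed quantile normalization and 1 without the array of experiment 2 without IL-7, and the second count of 8 was 2 without the array of experiment 1 with IL-7 and 4OHT. 4OHT raised 3 and lowered 2 in each IL-7 state, 25% of the list, against 9.16% of all genes called with IL-7 and 15.3% without. Among these Ctbp2, a BCL6-binding corepressor, fell by 0.81 ± 0.09 with IL-7 and fell by 1.11 ± 0.09 without (SE, limma adjusted p = 0.000126 and 4.55e-06). The count with IL-7 was 3 without the array of experiment 1 with IL-7 and 4OHT.

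Among 27 other genes of the BTB zinc finger class and its relatives, the largest difference in the 8 comparisons was 0.83 (Zbtb20). Withdrawal at 6 h raised 1, Zbtb7b (0.28 ± 0.07), and lowered 1, Zbtb25 (-0.31 ± 0.08, SE), with 5 called when the experiment was a block and 0 without the array of experiment 1 of either group. These 2 are 7.41% of the list, below the 14.3% of all genes called. At 24 h withdrawal raised 9 and lowered 1 without 4OHT, led by Zbtb20 (0.83 ± 0.21) and Zbtb37 (0.61 ± 0.13), and raised 12 and lowered 1 with it, led by Zbtb37 (0.70 ± 0.13) and Bach2 (0.60 ± 0.16, SE). They are 37% and 48.1% of the list, against 20.0% and 24.3% of all genes called. Those counts were 5 and 7 without the array of experiment 2 without IL-7 in the first and of experiment 2 with IL-7 in the second. Bcl6b, the closest relative of Bcl6, was read at 6.75 and 6.65 at 6 h without IL-7 against 6.78 and 6.68 with it, a difference of -0.03 ± 0.08 (SE, limma adjusted p = 0.92). With 4OHT at 24 h it rose on withdrawal by 0.25 ± 0.08 (SE, limma adjusted p = 0.0377), a call lost after renewed quantile normalization.

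4OHT at 24 h raised 3 and lowered 1 of the 27 with IL-7, and raised 6 without it, 14.8% and 22.2% of the list against 9.16% and 15.3% of all genes called. The experiment as a block gave 9 and 11, and leaving out single arrays gave as few as 1 (without experiment 1 with IL-7 and 4OHT) and 2 (without experiment 1 without IL-7 and with 4OHT). Zbtb7a, also known as LRF, rose by 0.49 ± 0.08 with IL-7 and 0.50 ± 0.08 without (SE).

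Genes of the germinal centre program, which BCL6 is known for in mature B cells, were split. Of 14 measured members of 16, 3 rose and 1 fell at 6 h without IL-7, 28.6% of the list against 14.3% of all genes called. The rises were Spib, an Ets factor (0.68 ± 0.10), Irf8 (0.40 ± 0.07) and Mef2c (0.31 ± 0.07), and the fall was Cxcr5, the chemokine receptor of follicles (-2.87 ± 0.17, SE). Cxcr5 was read at 5.48 and 5.63 at time 0, 8.43 and 8.62 at 6 h with IL-7, and 5.64 and 5.67 at 6 h without it, so it was high where Bcl6 was lowest. At 24 h withdrawal raised 3 and lowered 3 in each 4OHT state, 42.9% of the list against 20.0% of all genes called without 4OHT and 24.3% with it, with Mybl1, a MYB family factor, at -1.46 ± 0.13 and -1.48 ± 0.13 (SE). 4OHT raised 3 with IL-7, and raised 3 and lowered 1 without it, 21.4% and 28.6% of the list against 9.16% and 15.3% of all genes called, led by Spib with 2.51 ± 0.10 and 2.06 ± 0.10 (SE).

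**Figure D5:**
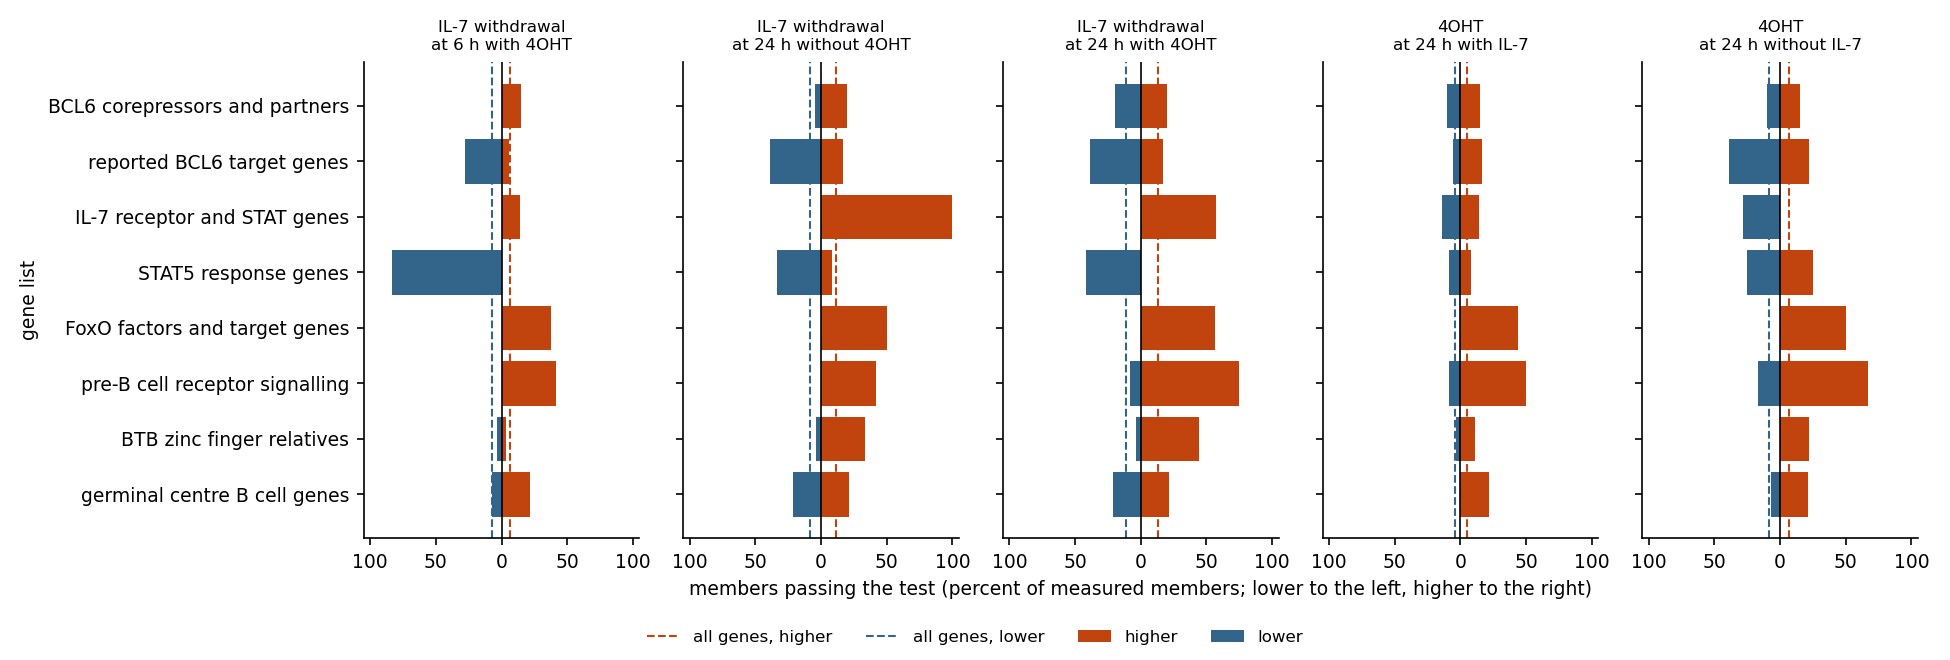
Percent of measured members called higher (right) or lower (left) for 8 gene lists in 5 comparisons, with dashed lines at the percent of all genes called in each direction. The STAT5 response list reaches 10 of 12 lower at 6 h without IL-7, and the IL-7 receptor and STAT list 7 of 7 higher at 24 h without IL-7 and 4OHT.

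The genes beside Bcl6 on the chromosome were read in the same way, but all except Lpp had group means between 5.39 and 7.43, near or below the median of all values (7.33), so a shared pattern may not show in them. The 5 nearest genes with a probe set on each side in the RefSeq gene table were Rtp1, Masp1, Rtp4, Sst and Rtp2 on one side, and Lpp, Mir28a, Tprg, Trp63 and P3h2 on the other. By limma 0 of 10 was called in each of the 3 withdrawal and both 4OHT comparisons, with 0, 0, 1, 2 and 1 at an unadjusted p under 0.05. Of all genes 14.3%, 20.0%, 24.3%, 9.16% and 15.3% were called there, so 0 calls among 10 mostly dim genes says nothing particular about the locus. The differences of these 10 genes on withdrawal at 6 h ran from -0.31 to 0.15. With the experiment as a block 2 were called for 4OHT at 24 h with IL-7 and 1 without IL-7, and leaving out 1 array gave at most 1 call for withdrawal with 4OHT. Lpp, which encodes an adhesion-site protein, had group means of 11.00 and 10.77 at 6 h with and without IL-7, where Bcl6 stood at 7.73 and 10.20.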

How the data were processed

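Per the labels, labelled cDNA was prepared with whole-transcript kits by Ambion and Affymetrix. The authors deposited log2 values of 35556 probe sets, made with Affymetrix Expression Console 1.1 and RMA per the submitters' processing notes, which were used unscaled. RMA takes most genes as unchanged, so differences are relative to the bulk. The genome build was not given in the sources used here. Probe sets with 1 symbol were used (brightest per gene, 19938 genes), and those with several symbols or none were left out.

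Groups were fitted in limma 3.58.1 (R 4.3.3) over all 14 arrays with 7 residual and 4.83 prior degrees of freedom. The fit was tested on simulated data with independent noise on each array and no experiment effect, so the pairing was not covered. The members and lists were chosen with earlier results of these data known. Named genes were Bcl6, the 8 closest and 6 opposite genes, up to 4 called members per list and comparison with the largest differences, fixed key genes and all neighbours. Predicted, olfactory, microRNA, snoRNA and immunoglobulin segment genes were left out of the likeness ranking. The experiment number pairs arrays, since the labels name independent experiments. Same-numbered deviations correlated at 0.124 to 0.631 in all 21 pairs of groups. Alternatives were the experiment as a block, renewed quantile normalization, dim genes left out, a trended robust spread, only the arrays compared, and each array left out. Promoter letters were searched in RefSeq windows (GRCm38.p6). Some listed genes are not reported here.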

Additional observations from a re-analysis of the deposited data

Results flagged for a closer look

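The 3 list genes that follow differed in their 4OHT response at 24 h between the cells without and with IL-7, by the limma interaction test, in which 0.687% of all genes were called. For Myc the 4OHT difference without IL-7 minus that with IL-7 was -2.47 (limma adjusted p = 3.05e-05), from -2.70 without IL-7 and -0.23 with it. For Cxcr5 it was -1.47 (limma adjusted p = 0.0174), from 0.50 and 1.97. For Vpreb1, a surrogate light chain gene, it was -0.75 (limma adjusted p = 0.00756), from -1.34 and -0.59. The corresponding Bcl6 value was -0.44 ± 0.12 (SE), a description with no test. At 24 h the Cxcr5 group means were 5.49 without IL-7 and 4OHT, 5.98 with 4OHT alone, 6.38 with IL-7 alone and 8.34 with both. All but the last lay below the median of all values (7.33), where values are less certain.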

How the results depend on the processing

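With the experiment as a block, since the experiment number pairs the arrays, the genes called were 2999 instead of 1748 for 6 h with IL-7 and 4OHT against time 0, 2056 instead of 617 for 24 h with IL-7 against time 0, 3324 instead of 1826 for 4OHT at 24 h with IL-7, and 449 instead of 137 for the interaction. The block gave 6 corepressors, 3 IL-7 receptor and STAT genes and 5 BTB zinc finger genes on withdrawal at 6 h, 8 corepressors on withdrawal at 24 h without 4OHT, and 5 reported targets at 24 h with IL-7 against time 0. For 4OHT with IL-7 it gave 6 STAT5 response genes, 9 BTB zinc finger genes and 2 neighbouring genes, and without IL-7 it gave 11 BTB zinc finger genes and 1 neighbouring gene. It lost 0 of 271 calls of list genes. The 271 leave out the 3 interaction calls of Myc, Cxcr5 and Vpreb1, whose stability is not given here. Within the experiments, which block by construction, the Bcl6 differences were 1.54 and 1.75 for withdrawal at 24 h without 4OHT, 1.33 and 1.08 with 4OHT, -0.12 and 0.16 for 4OHT with IL-7, -0.34 and -0.52 without IL-7, and -0.21 and -0.68 for the interaction.

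Fits to only the arrays compared called 884 genes for 6 h and 128 for 24 h with IL-7 against time 0. Renewed quantile normalization gave a Bcl6 difference of -1.26 for 24 h with IL-7 against time 0, 2 IL-7 receptor and STAT genes on withdrawal at 6 h and 3 corepressors at 24 h without 4OHT, and lost 12 of the 271 calls. Without dim genes 3 IL-7 receptor and STAT genes and 4 BTB zinc finger genes were called on withdrawal at 6 h. A trended robust spread called 3 IL-7 receptor and STAT genes there and lost 11 of the 271 calls. None of the 271 calls changed sign under the block, the normalization or the trended spread. Ranked by Pearson r, among 1666 genes instead of 17224, 5 of the 8 like and 2 of the 6 opposite genes were shared. The 2 shared opposite genes were Relt and Lfng, so Socs2 and Cish were not among the 6 by Pearson r. Averaging probe sets gave no other value, since Bcl6 has 1 probe set. The causes were not tested.

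Leaving out 1 array at a time gave the following ranges of calls, or of the Bcl6 difference. For 6 h with IL-7 and 4OHT against time 0 they were 1067 to 1737 for all genes and 3 to 7 for reported targets. For withdrawal at 6 h they were 1490 to 2892 for all genes, 1 to 3 for corepressors, 0 to 2 for IL-7 receptor and STAT genes, 6 to 10 for STAT5 response genes, 3 to 6 for FoxO genes, 2 to 4 for pre-B cell receptor genes and 0 to 2 for BTB zinc finger genes. For 24 h with IL-7 against time 0 they were 39 to 745 for all genes, 0 to 4 for reported targets, 2 to 4 for STAT5 response genes and -1.45 to -1.25 for the Bcl6 difference. For withdrawal at 24 h without 4OHT they were 2279 to 4024 for all genes, 1 to 5 for corepressors, 6 to 11 for reported targets, 4 to 7 for IL-7 receptor and STAT genes, 4 to 9 for FoxO genes, 2 to 6 for pre-B cell receptor genes, 5 to 9 for BTB zinc finger genes and 1.55 to 1.75 for the Bcl6 difference. For withdrawal at 24 h with 4OHT they were 2 to 9 for corepressors, 5 to 10 for pre-B cell receptor genes, 7 to 14 for BTB zinc finger genes and 0 to 1 for neighbouring genes. For 4OHT with IL-7 they were 847 to 1885 for all genes, 3 to 5 for corepressors, 1 to 2 for IL-7 receptor and STAT genes, 1 to 5 for BTB zinc finger genes and -0.0799 to 0.118 for the Bcl6 difference. For 4OHT without IL-7 they were 1841 to 3104 for all genes and 2 to 8 for BTB zinc finger genes. For the interaction they were 50 to 162 for all genes and -0.54 to -0.35 for the Bcl6 difference. The lowest count of all genes for 24 h with IL-7 against time 0, 39, came without the 24 h array of experiment 2, against 617 with it.

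Each group has 2 arrays, so leaving out one leaves a lone array that is assumed to vary like the other groups. Of the 271 calls of list genes, 157 were kept in all 14 such fits. The arrays measure transcripts in 1 line and not BCL6 protein or binding. Signal over background was not tested, so low values such as those of Bcl6b, Prdm1 and, without IL-7, Cxcr5 are the least certain.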
